A study of Mus musculus with 6 samples.

Results

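The wells described here are endothelial cells of mouse kidney that held transcripts of both Apln and Esm1, a pair of genes that mark sprouting vessels. They were chosen from the wells sorted through the endothelia gate as those with Apln of at least 50 CPM and Esm1 of at least 100 CPM, where CPM is the read count of a gene scaled to 1e+06 reads on genes of that well. The rule gave 80 members among the 1129 kept wells of the gate, and the remaining 1049 are called other wells. The series kept 2235 of 2292 sorted wells, the rest of them from a mesenchyme gate.

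Single cells of kidney, dissociated with enzymes and sorted by flow cytometry into 6 plates, were sequenced with Smart-seq2, which reads whole transcripts of 1 cell per well. The groups are healthy mice, mice at day 2 of unilateral ureteric obstruction (UUO) and mice at day 10 of UUO. Blocking a ureter raises pressure behind it, harms the tubules and ends in a scarred kidney. Each plate mixed cells of 1 mouse per group, and a number from 1 to 4 in the plate layouts was taken as the mouse of each group (n = 4 mice per group). Strain, sex, age and the antibodies of the sort are not given in the sources used here, and no mutation or drug is named for any group. The sample labels name no transgene either, which does not show that the mice carried none. Whether the healthy kidneys had a sham operation is likewise not given. In every plate a group fills the same columns of wells, so group and plate column cannot be told apart. Each plate held 10 to 20 members, in a total of 116992491 to 142898570 gene reads. Member wells held a median of 442742 reads and 3451 genes, and other wells 393549 reads and 2992 genes.

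Apln encodes apelin, a secreted peptide that endothelial tip cells release and that signals through the receptor Aplnr on neighbouring vessels. Esm1 encodes endocan, a secreted proteoglycan that is a standard marker of tip cells, the leading cells of a vessel sprout. Tip cells respond to VEGF through Kdr, express Dll4, Angpt2 and Cxcr4, and extend filopodia. In the kidney, the endothelium of the glomerulus (marked by Ehd3) filters blood, whereas the peritubular capillaries (marked by Plvap, a protein of the diaphragms of capillary pores) take up what the tubules reabsorb.

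The promoters of the genes that chose the wells, and of Trp53i11, the gene of largest per-well difference among those not used by the rule, are shown so that their sequence can be set side by side. Each line holds the 250 bases before the RefSeq transcript start in the build GRCm38.p6, 5′ to 3′ on the gene's strand. They lie at chrX:48034854-48035103 (minus strand) for Apln, chr13:113209409-113209658 (plus strand) for Esm1 and chr2:93187298-93187547 (plus strand) for Trp53i11. Capitals mark the core of the hypoxia response element, searched as ACGTG or GCGTG on both strands.
Apln: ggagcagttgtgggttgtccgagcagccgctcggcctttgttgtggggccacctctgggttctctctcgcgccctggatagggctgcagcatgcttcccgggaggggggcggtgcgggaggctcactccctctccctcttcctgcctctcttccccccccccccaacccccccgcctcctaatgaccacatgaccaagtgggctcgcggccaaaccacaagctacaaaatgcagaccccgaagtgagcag
Esm1: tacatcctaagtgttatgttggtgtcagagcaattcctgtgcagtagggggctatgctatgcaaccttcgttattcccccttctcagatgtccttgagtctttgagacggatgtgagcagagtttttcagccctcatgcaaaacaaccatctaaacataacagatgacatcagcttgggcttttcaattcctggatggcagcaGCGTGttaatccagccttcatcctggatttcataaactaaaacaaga
Trp53i11: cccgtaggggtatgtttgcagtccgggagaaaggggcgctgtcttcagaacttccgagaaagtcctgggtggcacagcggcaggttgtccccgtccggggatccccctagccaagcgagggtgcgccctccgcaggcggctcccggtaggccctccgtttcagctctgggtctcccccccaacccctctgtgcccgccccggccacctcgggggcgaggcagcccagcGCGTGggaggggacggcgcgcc
The core was found once before Esm1, beginning 47 bases before the start, and once before Trp53i11, beginning 22 bases before it. These letters are not in the Apln window. Of 32536 mouse promoters of the same length, 38.8% held the core, so a match is a common event.

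In the member wells, Apln ranged from 53.5 to 15942 CPM with a median of 1414 CPM, and Esm1 from 174 to 17615 CPM with a median of 1796 CPM. The median other well held 0 CPM of both. These values describe the rule and carry no test. The 3 members just inside the Apln threshold held 53.5, 66.2 and 79.0 CPM, and the wells just outside it that met the Esm1 threshold held 19.1, 13.1 and 7.09 CPM. The lowest members for Esm1 held 174, 182 and 182 CPM, and the wells just outside that met the Apln threshold held 49.1, 46.6 and 43.1 CPM. Apln without Esm1 was found in 58 wells and Esm1 without Apln in 254, of which 220 held no Apln read. All 80 members held Pecam1, the endothelial adhesion molecule, at a median of 3241 CPM (69.6 to 6949), against a median of 2011 CPM in other wells. Cdh5, the cadherin of endothelial junctions, had a median of 835 CPM in members and 488 CPM in other wells. The same rule applied to the mesenchyme gate found 1 of 1106 wells (0.0904%, exact 95% interval 0.00229 to 0.503%, counting error only), and that well also held 762 CPM of Pecam1 and 338 CPM of the pericyte and fibroblast receptor Pdgfrb. The median endothelia-gate well held 397546 reads and the median mesenchyme-gate well 353288. None of 12 control wells met the rule, but their median of 3264 reads lies under the 20000 reads asked of a kept well, and 3 of the 12 reached the Esm1 threshold.

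**Figure D1:**
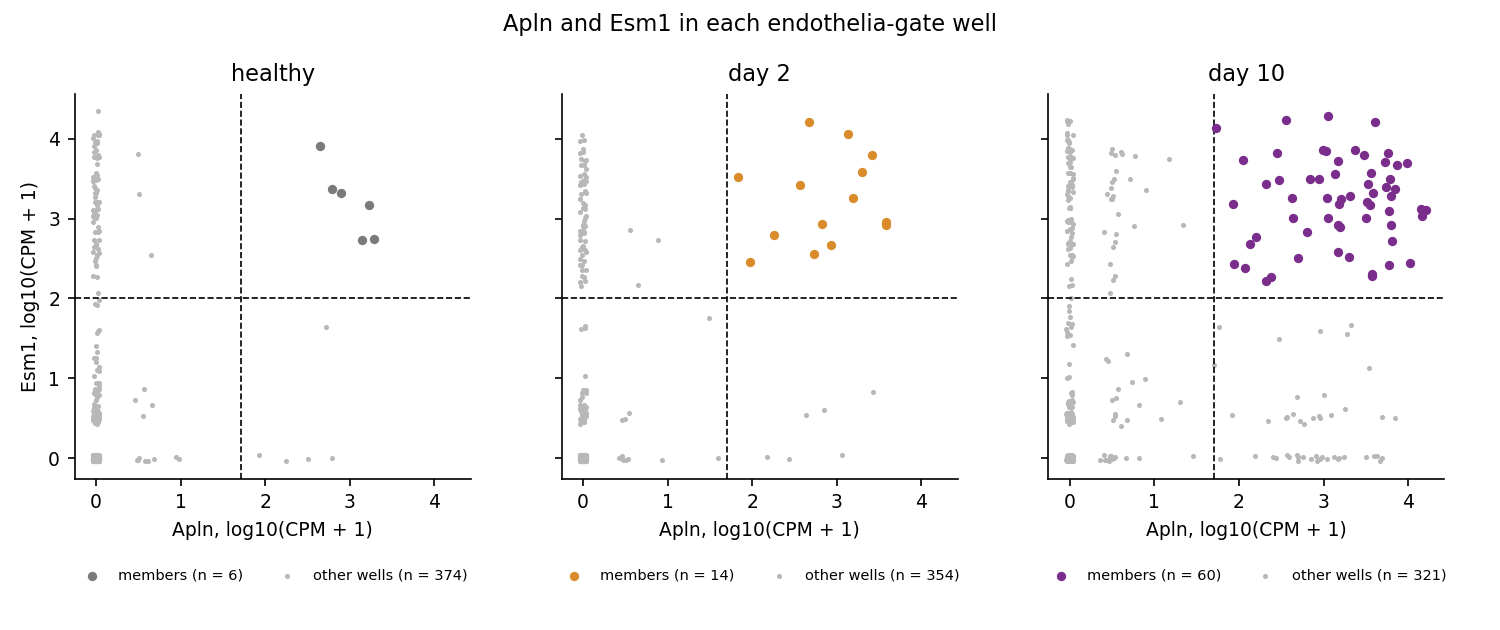
Apln (horizontal) and Esm1 (vertical) in each kept well of the endothelia gate, both as log10(CPM + 1), by condition; dashed lines are the thresholds of the rule and larger points the members. Healthy kidneys hold 6 members, day 2 kidneys 14 and day 10 kidneys 60, and no well past the Esm1 line holds Apln between 19.1 and 53.5 CPM.

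The members were found mostly in obstructed kidneys at day 10. They numbered 6 of 380 gate wells in healthy kidneys, 14 of 368 at day 2 and 60 of 381 at day 10. In healthy mice 1 to 4 the share was 3.17%, 0%, 1.56% and 0.794%. At day 2 it was 2.63%, 0%, 9.38% and 3.94%, and at day 10 it was 21.3%, 15.6%, 9.38% and 13.5%. The shares of 0 allow up to 4.69% in the healthy mouse and 4.76% in the day 2 mouse. Every day 10 mouse lay above every healthy mouse, while the lowest day 10 mouse equalled the highest day 2 mouse.

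The mean share was 1.38 ± 1.35% in healthy mice, 3.99 ± 3.95% at day 2 and 14.9 ± 4.95% at day 10 (SD, n = 4 mice each). Day 10 exceeded healthy by 13.6 percentage points (exact permutation test, two-sided, p = 0.0286, the smallest this design allows, and 0.0857 adjusted over 3 comparisons). Day 10 exceeded day 2 by 10.95 percentage points (exact permutation p = 0.0571, adjusted 0.0857). Day 2 exceeded healthy by 2.60 percentage points (exact permutation p = 0.314). Without number 3 the day 2 mean was 2.19% and its excess over healthy 0.867 percentage points, and without number 1 the healthy mean was 0.785%. None of these differences passed an adjusted p of 0.05, although per plate, with 6 values a group that share mice, both day 10 differences did (adjusted exact permutation p = 0.00649). Paired by number, with an exact sign-flip test whose smallest p is 0.125, day 10 against healthy gave p = 0.125.

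**Figure D2:**
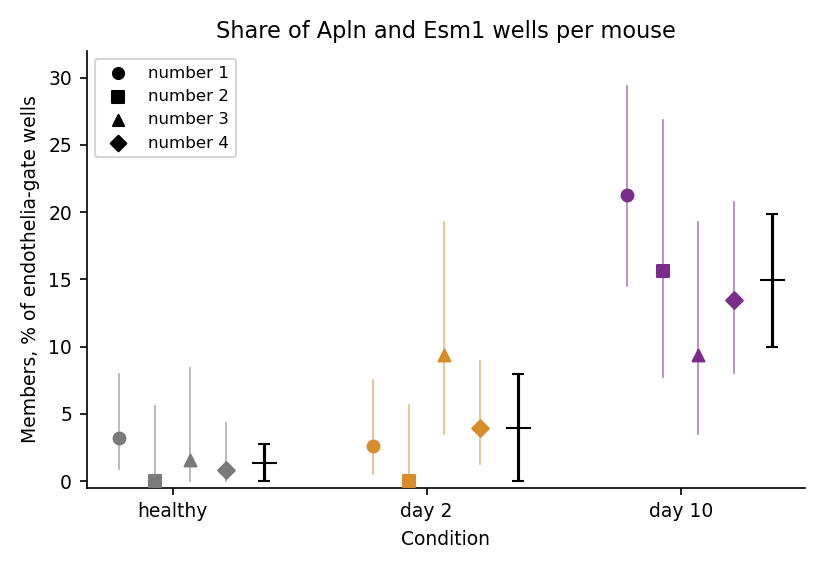
Share of endothelia-gate wells that met the Apln and Esm1 rule (vertical, percent) in each mouse by condition, with thin lines for exact 95% binomial intervals and black bars for mean ± SD over 4 mice. All 4 day 10 mice, from 9.38 to 21.3%, lie above all 4 healthy mice, from 0 to 3.17%.

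Each gene of the rule, counted alone, was found in the most wells at day 10. Apln reached its threshold in 11 healthy wells (2.89%), 20 day 2 wells (5.43%) and 107 day 10 wells (28.1%). Esm1 reached its threshold in 81 healthy wells (21.3%), 86 day 2 wells (23.4%) and 167 day 10 wells (43.8%). Levels within members are given without a test, since the rule used them. The median member held 1086 CPM of Apln in healthy, 718 CPM in day 2 and 1576 CPM in day 10 kidneys, and 1697, 1364 and 1796 CPM of Esm1 in the same order.

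Members carried the markers of either kidney capillary type, in shares that are described here without a test. Ehd3 of at least 50 CPM, the glomerular marker, was present in 2 of 6 healthy, 9 of 14 day 2 and 49 of 60 day 10 members. Plvap of at least 100 CPM, the peritubular marker, was present in 6 of 6 healthy, 13 of 14 day 2 and 15 of 60 day 10 members. Thus 41 of the 60 day 10 members held Ehd3 without Plvap, a combination seen in 0 of 6 healthy and 1 of 14 day 2 members. Both markers together were found in 2 healthy, 8 day 2 and 8 day 10 members. In day 10 mice 1 to 4, Plvap-positive members were 5 of 27, 3 of 10, 2 of 6 and 5 of 17, so the low share was seen in each. In the 3 day 2 mice with members they were 3 of 3, 6 of 6 and 4 of 5. Among other wells the share with Ehd3 was 66.6% in healthy, 64.1% at day 2 and 70.1% at day 10, and the share with Plvap was 29.1%, 35.3% and 23.7% in the same order. Read the other way, members made up 0.797% of Ehd3-positive gate wells in healthy, 3.81% in day 2 and 17.9% in day 10 kidneys. Of the Ehd3-negative wells they made up 3.10%, 3.79% and 10.3% in that order.

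**Figure D3:**
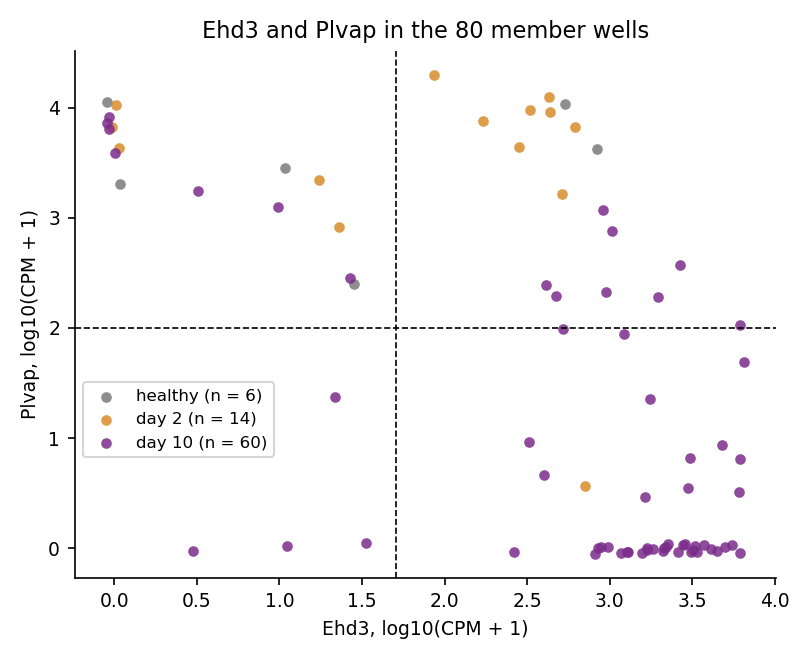
Ehd3 (horizontal) and Plvap (vertical) in each of the 80 member wells, both as log10(CPM + 1), coloured by condition; dashed lines are 50 and 100 CPM. Day 10 members gather at high Ehd3 and little Plvap, whereas 13 of 14 day 2 and 6 of 6 healthy members lie above the Plvap line.

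Against other wells of the same mice, members held more transcript of the vessel-destabilising factor Angpt2, of the capillary lipid handling genes Gpihbp1 and Fabp4, of the guidance receptor Robo4 and of the collagen IV chains Col4a1 and Col4a2. They held less of the taurine transporter Slc6a6, the sialomucin Podxl and the surface protein Ly6c1. For this test counts were summed over the members and over the other wells of each mouse with at least 5 members, which left 6 mice, namely numbers 1 to 4 of day 10 (27, 10, 6 and 17 members) and numbers 3 and 4 of day 2 (6 and 5 members). No healthy mouse had enough members, so what follows describes obstructed kidneys. The edgeR quasi-likelihood test, with mouse as a block and Benjamini-Hochberg adjustment, called 14 of 11072 genes (0.126%), 7 higher (0.0632%) and 7 lower (0.0632%) in members. At an unadjusted p under 0.05 there were 1234 genes (11.1%). The 14 calls rest on few mice, since without number 1 or without number 4 the count was 0, without number 2 it was 5 and without number 3 it was 2. Requiring 10 wells per sum also left 0.

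In the order day 10 numbers 1 to 4 and then day 2 numbers 3 and 4, Angpt2 (chr8:18690263-18741562, build GRCm38) had 1277, 379.8, 271, 1828, 388 and 132 CPM in members. In other wells of the same mice it had 99.0, 114, 33.2, 53.1, 21.3 and 4.81 CPM. Members were higher in 6 of 6 mice and the groups did not overlap (log2 change 3.79 ± 0.46 SE, edgeR adjusted p = 0.025). At least 10 CPM of Angpt2 was present in 40 of 80 members (50%) and in 74 of 1049 other wells (7.05%).

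Trp53i11, a transmembrane protein induced by p53 in human cells, had 1757, 744, 266, 1249.6, 925 and 486 CPM in members, against 213, 129.6, 106, 277, 221 and 134 CPM in other wells. Its members were higher in 6 of 6 mice, with a log2 change of 2.18 ± 0.27 (SE, edgeR adjusted p = 0.025), and it was present in 61 members (76.2%) and 185 other wells (17.6%). Gpihbp1, which anchors lipoprotein lipase to the capillary wall, had 3449.9, 3517, 2712, 3107, 2274 and 3291 CPM in members, against 1081, 1358, 1491, 1109, 777 and 466 CPM in other wells (1.64 ± 0.23, adjusted p = 0.0396). Every member sum exceeded every other-well sum. Fabp4, a fatty acid carrier of capillaries, changed by 1.41 ± 0.21, Robo4 by 1.20 ± 0.18, Col4a1 by 1.05 ± 0.15 and Col4a2 by 1.02 ± 0.15 on the log2 scale (edgeR adjusted p = 0.0414 for each).

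Slc6a6 had 92.1, 55.8, 49.9, 107, 128 and 167 CPM in members and 671, 317, 1017, 645, 1217 and 1109.8 CPM in other wells, which is a log2 change of -3.02 ± 0.31 (SE, edgeR adjusted p = 0.0134). Podxl, a sialomucin of the apical endothelial surface, changed by -1.22 ± 0.17 and Ly6c1 by -1.01 ± 0.14 (adjusted p = 0.0396 for both). Ly6c1 has near-identical paralogs, so its count may include reads of copies. Mal, a proteolipid of membrane traffic, changed by -2.96 ± 0.43 (adjusted p = 0.0414). Efhd1, Aif1l and Prune2 were also called lower. They were close to 0 in members, and Efhd1 reached 10 CPM in 0 of 80 members, which allows a share of up to 3.75%.

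**Figure D4:**
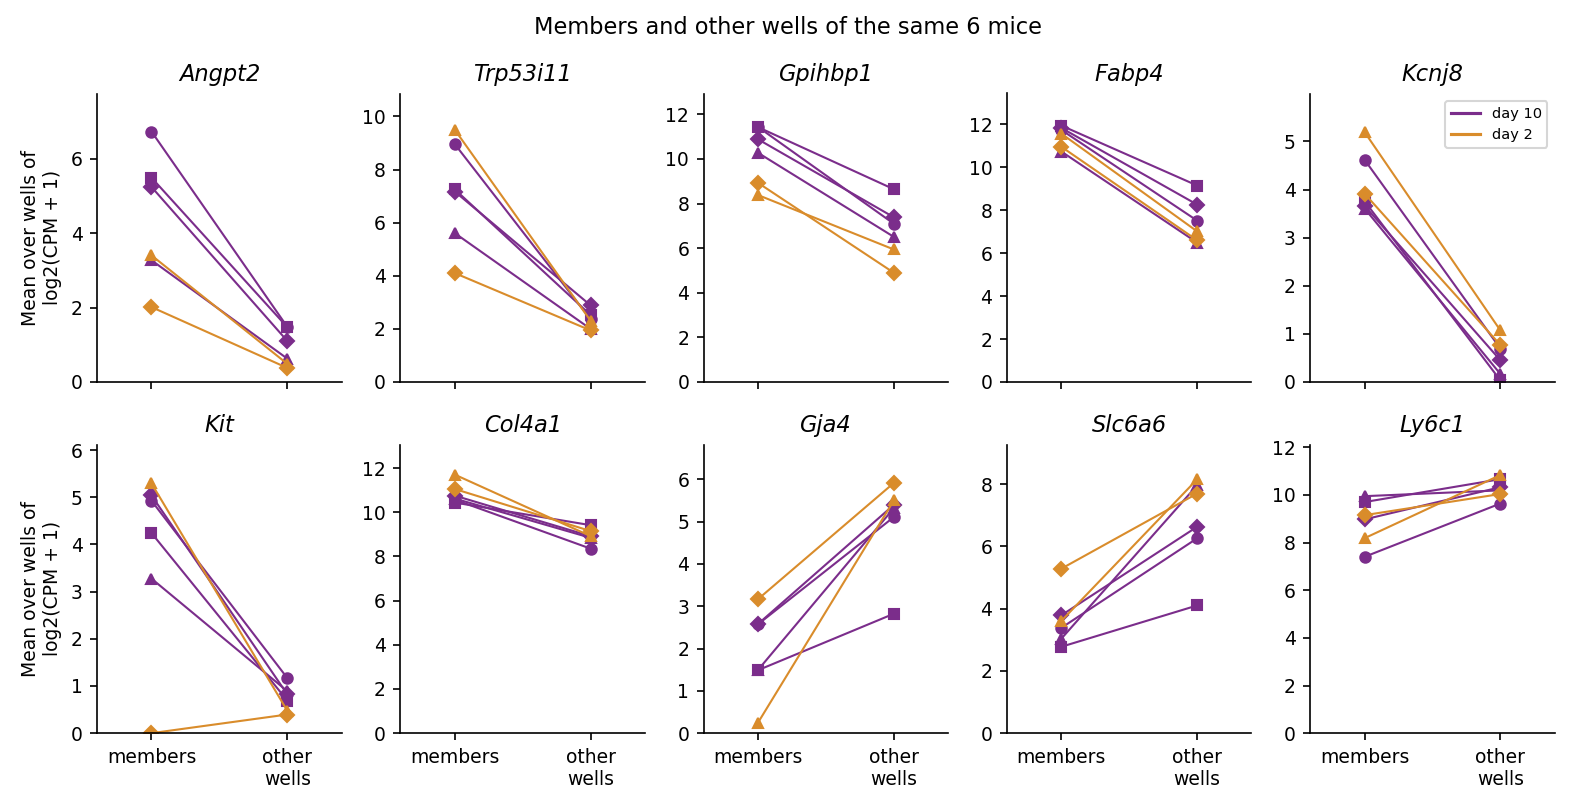
Mean over wells of log2(CPM + 1) in members and in other wells of 10 genes, 1 line per mouse for the 6 mice with at least 5 members; circles, squares, triangles and diamonds are numbers 1 to 4. Angpt2, Trp53i11, Gpihbp1, Fabp4, Kcnj8 and Col4a1 are higher in members in 6 of 6 mice, Kit in 5 of 6, and Gja4, Slc6a6 and Ly6c1 are lower in 6 of 6.

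Sums of 5 to 27 member wells held 7258 to 12383 genes, and sums of 54 to 122 other wells held 13197 to 16524. In the summed test the median log2 change over all genes was -0.83. A second test that does not depend on the number of wells summed was therefore added after the data were seen. It compares the mean over wells of log2(CPM + 1) per mouse with limma, weighted by wells and with mouse as a block, and its median over all genes was 0.10. It called 326 of 11072 genes (2.94%), 239 higher (2.16%) and 87 lower (0.786%) in members, including all 14 of the edgeR calls in the same direction. On the sums DESeq2 gave 93 higher and 1678 lower, so the balance of directions depends on the test. Without number 1 it called 107 genes and without number 4 it called 193. Log2 differences from this test are given as per-well differences. Limma pools the spread over genes, so with few mice its p-values draw on more than the spread of a gene between mice. Such a difference takes in both the share of wells that hold a gene and its level in them.

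Genes of the tip cell list were among those higher in members. Of 25 listed tip cell genes tested, 16 were higher, 0 were lower and 9 did not pass, with a median per-well difference of 1.71 against 0.10 over all genes tested. They were Trp53i11, Angpt2, Ramp3, Fscn1, Cd93, Dll4, Marcksl1, Plaur, Plxnd1, Flt4, Pdgfb, Adm, Pgf, Mcam, Nrp2 and Rgcc. The gene lists were chosen with earlier results of these data known, so such counts describe the members and are no separate support. Angpt2, Flt4, Pgf, Nrp2, Dll4, Adm and Fscn1 are among those counted again in lists below. The count was 7 without number 1, 15 without number 2, 13 without number 3 and 10 without number 4. Fscn1, the actin bundler of filopodia, had 208, 253, 267, 283, 421 and 91.0 CPM in members, against 97.8, 105, 104, 80.6, 148 and 69.4 CPM in other wells. Its per-well difference was 3.30 ± 0.46 (SE, limma adjusted p = 3.04e-06), and it was present in 70 members (87.5%) and 449 other wells (42.8%). Ramp3, a co-receptor for adrenomedullin, differed by 3.18 ± 0.44 (adjusted p = 2.71e-06) and Cd93, a lectin-like receptor of endothelium, by 2.62 ± 0.42 (adjusted p = 4.14e-05). Dll4, the Notch ligand of tip cells, was present in 76 members (95%) and 770 other wells (73.4%) and differed by 1.66 ± 0.33 (adjusted p = 0.00131), higher in 5 of 6 mice. In the summed counts Dll4 did not pass, and 2 of the 25 tip cell genes did.

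Of the VEGF and angiopoietin genes, 5 of 12 were higher (Angpt2, Kdr, Flt4, Pgf and Nrp2) and 1 was lower (Vegfa, -1.05 ± 0.23, adjusted p = 0.00297). Kdr, the main VEGF receptor, was present in 79 members (98.8%) and 893 other wells (85.1%), with a per-well difference of 1.26 ± 0.28 (adjusted p = 0.005). Its summed counts gave a log2 change of 0.00 ± 0.18 (SE, edgeR adjusted p = 0.997), so its total transcript did not detectably differ. The share of wells with Kdr, counted over all mice, was not tested by itself. Of 15 Notch pathway genes, Dll4 alone passed. Of the CXCL12 receptors, Ackr3, the scavenger receptor, differed by 2.46 ± 0.44 (adjusted p = 0.000261) and Cxcr4, the signalling receptor, by 1.45 ± 0.40 (adjusted p = 0.0291). Cxcr4 was higher in 4 of 6 mice and at 0 in both day 2 mice. Its summed change of 0.62 did not pass and was 0.0241 to 1.63 when 1 number was left out.

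Matrix and cytoskeleton genes followed the same direction. Of 17 basement membrane genes, 8 were higher (Col4a1, Nid1, Col4a2, Nid2, Hspg2, Sparc, Lama4 and Lamc1) and 1 was lower (Lama3), with a median of 0.95. Nid1, which links laminin to collagen IV, had 651, 410.5, 524, 435, 271 and 1255 CPM in members, against 307, 335, 247, 259, 215 and 241 CPM in other wells (2.94 ± 0.45, adjusted p = 1.87e-05). Members were higher in each of the 6 mice. Of 23 regulators of small GTPases and the cytoskeleton, 8 were higher and 0 lower, among them Cdc42ep3 (3.05 ± 0.46), Arhgap18 (3.25 ± 0.49) and Rnd1 (1.99 ± 0.47, adjusted p = 0.00855). Rnd1, a small GTP-binding protein, was present in 59 members (73.8%) and 403 other wells (38.4%). Of 11 genes of endothelial identity, Robo4, Emcn, Kdr, Pecam1 and Cldn5 were higher and 0 were lower. Against the Ehd3-positive other wells described below, 2 of these 11 genes were higher. With Ehd3-positive members alone it was 1 of 11 (Cldn5).

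Arterial genes ran the other way. Of 16 tested, 0 were higher and 9 were lower (Slc6a6, Gja4, Ltbp4, Ssu2, Fbln5, Fbln2, Gja5, Tspan8 and Sema3g), with a median of -1.18. Without number 1 the count was 4, without number 2 it was 7, without number 3 it was 5 and without number 4 it was 4. Against the Ehd3-positive other wells described below, 2 of 15 arterial genes were lower and 0 higher. With Ehd3-positive members alone it was again 2 of 15 (Ltbp4 and Slc6a6). The part that the mix of endothelial types among other wells has in the arterial count was not tested. Gja4, a connexin of arterial endothelium, had 189, 47.0, 100.1, 34.3, 0.377 and 237 CPM in members, against 368, 189.7, 557, 558, 704 and 658 CPM in other wells (-2.81 ± 0.47, limma adjusted p = 7.67e-05). It was lower in 6 of 6 mice. Klf2 and Klf4, transcription factors induced by shear stress, were lower by the same test (-2.17 ± 0.40, adjusted p = 0.000451, and -2.21 ± 0.47, adjusted p = 0.00244). The Klf4 call was lost without number 1. Of 8 venous genes 0 were called, which is no departure from the 2.94% of all genes.

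**Figure D5:**
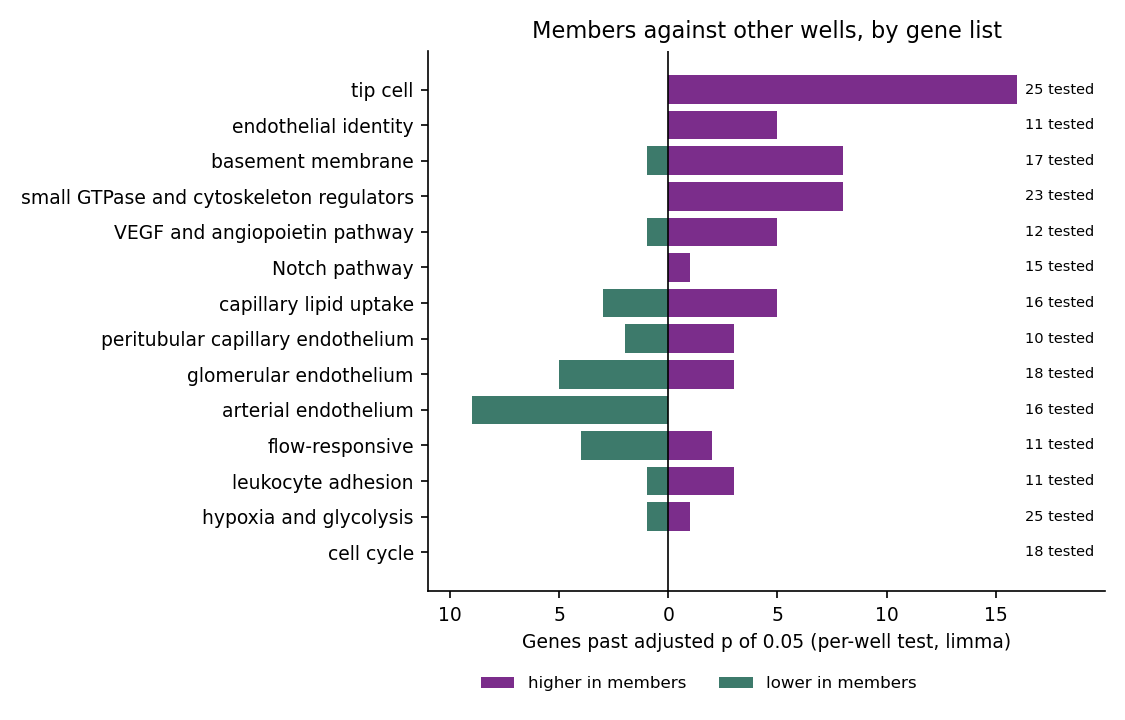
Number of genes of each list that were higher (right) or lower (left) in members than in other wells at a limma adjusted p under 0.05, with the number tested at the right. The tip cell list has 16 higher of 25 and the arterial list 9 lower of 16. The lists share genes and were chosen with earlier results of these data known.

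The lists of the capillary types were split. Of 10 peritubular genes, Fabp4, Gpihbp1 and Rsad2 were higher and Ly6c1 and Cd36 lower. Of 18 glomerular genes, Emcn, Kdr and Fam167b were higher and Pi16, Lpl, Tspan7, Igfbp5 and Eln lower. Without number 1 the glomerular counts were 2 higher and 1 lower, and without number 4 they were 1 higher and 4 lower. Of 16 genes of capillary lipid uptake, 5 were higher (Fabp4, Gpihbp1, Fabp5, Scarb1 and Cav1) and 3 were lower (Lpl, Slc27a3 and Cd36). Lpl, the lipase that Gpihbp1 holds at the vessel wall, was present in 13 members (16.2%) and 522 other wells (49.8%), with a difference of -2.50 ± 0.46 (adjusted p = 0.000351). That call was lost without number 1. The anchor and its lipase thus moved in opposite directions.

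Several genes of large per-well difference belong to no angiogenic list. Kcnj8, the pore of an ATP-sensitive potassium channel best known in pericytes (chr6:142564837-142571614), had 396, 296, 475, 263, 833 and 414 CPM in members, against 46.5, 0.0426, 16.5, 33.8, 41.4 and 44.3 CPM in other wells. It was present in 35 members (43.8%) and 41 other wells (3.91%) and differed by 3.64 ± 0.43 (adjusted p = 5.78e-08). Abcc9, which encodes the regulatory subunit of that channel and lies beside it (chr6:142587862-142702766), was present in 16 members (20%) and 28 other wells and differed by 1.27 ± 0.37 (adjusted p = 0.0455). The other 8 genes of the pericyte and smooth muscle list did not pass, Pdgfrb among them (-0.01 ± 0.21). Kit, the receptor of stem cell factor, had 263, 192, 118, 143, 117 and 0 CPM in members, against 53.9, 25.1, 16.5, 42.8, 15.8 and 22.7 CPM in other wells. It was present in 40 members (50%) and 65 other wells (6.20%), with a difference of 3.48 ± 0.46 (adjusted p = 1.28e-06). The deubiquitinase Uchl1 (3.51) and the endothelin receptor Ednrb (2.76 ± 0.39, adjusted p = 4.9e-06) were also higher.

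Lists of growth and stress gave few or no calls, beside 2.94% over all genes. Of 18 cell cycle genes tested 0 passed, as did 0 of 16 genes of immediate early and dissociation stress and 0 of 8 MHC genes. Of 25 hypoxia and glycolysis genes, Adm was higher (1.71 ± 0.44, adjusted p = 0.017) and Vegfa was lower. Of 17 interferon genes Rsad2 alone was higher, and of 19 TGF-beta and BMP genes Smad1 was higher and Tgfb2 lower. A gene that did not pass is not shown to be equal.

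Most members of day 10 held Ehd3, so they were also set against the 701 other wells with at least 50 CPM of Ehd3. The edgeR test on summed counts called 0 of 10333 genes (0.0%), with 743 (7.19%) at an unadjusted p under 0.05. On the same sums DESeq2 called 969, 70 higher and 899 lower in members, and limma-voom 118, 63 higher and 55 lower. The per-well limma test called 170 (1.65%), 118 higher (1.14%) and 52 lower (0.503%) in members, so the balance of directions depends on the test. Trp53i11 (5.15 ± 0.51), Angpt2 (4.09 ± 0.47), Cd93 (3.93 ± 0.47), Kcnj8 (3.64 ± 0.44), the connexin Gja1 (3.48 ± 0.51) and Kit (3.34 ± 0.48) led the higher genes. Of 16 glomerular genes tested 8 were lower and 0 higher. Among those were the growth factor binding protein Igfbp5 (-3.88 ± 0.44, adjusted p = 3.31e-09), Lpl (-4.00 ± 0.51) and the peptidase inhibitor Pi16 (-4.06 ± 0.49). Of 25 tip cell genes 11 were higher. Without number 1 the test called 56 genes, with 6 glomerular genes lower and 4 tip cell genes higher.

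Because 20 members lacked Ehd3, Ehd3-positive members alone were then compared with the Ehd3-positive other wells of the 3 mice that had at least 5 of them, all at day 10 (45 members). The per-well test called 158 of 10333 genes (1.53%), 135 higher (1.31%) and 23 lower (0.223%). Of these, 102 were among the 170 above, an overlap that the shared wells favour and that is no separate support. Angpt2 had 1075, 379.8 and 1374 CPM in these members of numbers 1, 2 and 4, against 120.3, 100.4 and 43.4 CPM in the Ehd3-positive other wells. It differed by 4.12 ± 0.58 (limma adjusted p = 3.54e-08), and the groups did not overlap. Trp53i11 differed by 5.17 ± 0.56 (adjusted p = 1.29e-13) and Kit by 3.87 ± 0.57. With 3 mice, the SE and p-values of this test rest largely on a spread pooled over genes. They do not measure how far a single gene varies between mice. Cd14, the co-receptor for bacterial lipopolysaccharide, had 378, 278 and 299 CPM, against 108, 126 and 50.03 CPM (4.17 ± 0.57, adjusted p = 1.54e-08). Of 25 tip cell genes 7 were higher, of 17 basement membrane genes 7 were higher, and of 16 glomerular genes 4 were lower (Pi16, Igfbp5, Lpl and Tspan7). The 7 tip cell genes were Trp53i11, Angpt2, Cd93, Ramp3, Fscn1, Pdgfb and Cd34. Dll4 (0.91 ± 0.31, adjusted p = 0.132), Rnd1 (1.42 ± 0.52, 0.171) and Cxcr4 (1.38 ± 0.55, 0.234) did not pass, though higher in 3 of 3 mice. Kdr (-0.07 ± 0.28, adjusted p = 0.955) did not pass either. Plvap did not pass (0.58 ± 0.56, adjusted p = 0.761), whereas over all members it differed by 2.55 ± 0.58 (adjusted p = 0.00666).

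Set against the 193 other wells with Plvap but without Ehd3, in 5 mice, members held less of several arterial genes and more of several tip cell genes. The edgeR test called 11 of 9429 genes (0.117%), all lower in members, with 555 (5.89%) at an unadjusted p under 0.05. They were Trpv4, Efhd1, Aif1l, Prune2, Stom, Slc6a6, Mal, Crip1, Ltbp4, Cst3 and Podxl. Slc6a6, the taurine transporter, had a log2 change of -4.00 ± 0.38 (adjusted p = 0.00449). The per-well test called 462 genes (4.9%), 315 higher (3.34%) and 147 lower (1.56%). On the sums the balance was the other way, with 176 higher and 578 lower by DESeq2 and 89 higher and 131 lower by limma-voom. Of 16 arterial genes 10 were lower and 0 higher, with a median of -2.51, and the elastic fibre protein Fbln5 differed by -5.90 ± 0.71. Of 25 tip cell genes 11 were higher. Gpihbp1 (6.02 ± 0.63), Fscn1 (4.78 ± 0.71), Kdr (3.65 ± 0.53) and the VEGF co-receptor Nrp1 (2.66 ± 0.49) were among the genes higher in members. Gpihbp1, Fabp4 and Cd300lg, all of the peritubular list, were lower in these other wells than in members, and several arterial genes were higher. The kinds of vessel that these Plvap-positive wells come from were not tested. Of the 80 members 60 held Ehd3 of at least 50 CPM, a level these other wells lack. Between Ehd3-positive members and Ehd3-positive other wells, Gpihbp1 (2.82 ± 0.30) and Fscn1 (2.63 ± 0.51) passed. Kdr (-0.07 ± 0.28, limma adjusted p = 0.955) and Nrp1 (-0.07 ± 0.24, adjusted p = 0.941) did not. Without number 4 the per-well test called 91 genes and without number 1 it called 246.

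Within the members, day 10 was compared with day 2. The mix of members differed between these days. Over all members, Plvap of at least 100 CPM was present in 13 of 14 at day 2 and 15 of 60 at day 10. Ehd3 without Plvap was present in 1 of 14 and 41 of 60. The part of this mix in the changes below was not tested. With number as a block the changes come from numbers 3 and 4, present at both days, while day 10 numbers 1 and 2 are given but do not set them. Plvap had 181, 60.4, 1058 and 1056 CPM in day 10 members, against 8173 and 6820.5 CPM in day 2 members, and fell by edgeR (-2.71 ± 0.43, adjusted p = 0.000502) and by the per-well test (-7.56 ± 1.38, limma adjusted p = 0.0479). The groups did not overlap. Igfbp3, an insulin-like growth factor binding protein of peritubular capillaries, had 5249, 788, 499 and 875 CPM at day 10, against 7397 and 8117 CPM at day 2, again with no overlap. It fell by both tests (-3.44 ± 0.43, edgeR adjusted p = 4.17e-06, and -7.05 ± 1.28, limma adjusted p = 0.0479). Without the block, where numbers 1 and 2 enter, the summed change of Igfbp3 was -1.91 (edgeR adjusted p = 0.516) and that of Plvap -3.55 (adjusted p = 0.261). The per-well calls of both were lost with lower thresholds of the rule and in thinned wells. Ehd3 had 1793, 2505, 2136 and 2116 CPM at day 10, against 239 and 371 CPM at day 2, and rose by edgeR (2.95 ± 0.49, adjusted p = 0.00109) but not by the per-well test (adjusted p = 0.897).

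In all, edgeR called 10 of 9954 genes (0.1%) in this comparison, 7 higher (0.0703%) and 3 lower (0.0301%), and the per-well test 2 (0.0201%). At an unadjusted p under 0.05 there were 263 (2.64%) and 500 (5.02%). The remaining edgeR calls were Pgf, Serpina3f, Mob3c, Ces2e, Fgf1 and Tsc22d1, higher at day 10, and Spp1, lower. Fgf1, a growth factor of broad action, had 478, 958, 616 and 946 CPM at day 10, against 28.7 and 1.88 CPM at day 2. Pgf, a ligand of the VEGF receptor Flt1, had 206, 2.20, 475 and 134 CPM at day 10 and 0 in both day 2 mice, but it was present in 7 of 60 and 0 of 14 members. Spp1, which encodes osteopontin, had 0.0812, 2.65, 2.01 and 5.56 CPM at day 10, against 988 and 376 CPM at day 2. Serpina3f has near-identical paralogs that may share its reads. The fit holds 1 residual degree of freedom from the numbers present at both days. Without the block edgeR called 0 genes, with 942 at an unadjusted p under 0.05. Healthy members were too few for any such test.

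Cxcr4 and Slco2a1 reached 10 CPM in day 10 members but in no healthy or day 2 member. Cxcr4 reached 10 CPM in 0 of 6 healthy, 0 of 14 day 2 and 24 of 60 day 10 members, where counts of 0 allow shares up to 50% and 21.4%. It did so in 17 of 374, 14 of 354 and 47 of 321 other wells in the same order. The day 10 members held 28.3, 21.2, 125 and 18.2 CPM, against 0 and 0 in day 2 members. Slco2a1, the prostaglandin transporter, reached 10 CPM in 0 of 6 healthy, 0 of 14 day 2 and 32 of 60 day 10 members. In other wells it did so in 226 of 374 healthy, 231 of 354 day 2 and 209 of 321 day 10 wells. Its day 10 members held 244, 118, 121 and 249 CPM, against 0 and 0.628 CPM at day 2. The difference between members and other wells in the change from day 2 to day 10 was tested as an interaction. Slco2a1 was the 1 gene of 11072 (0.00903%) past the threshold in edgeR (adjusted p = 0.0305), with 811 (7.32%) at an unadjusted p under 0.05. The per-well test called 0, with 579 (5.23%) at an unadjusted p under 0.05. Cxcr4 did not pass it.

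Markers of other cell types were mixed. Leukocyte and tubule markers were near 0 in the median member, and pericyte and podocyte markers were higher in the median member than in the median other well. Of 10 leukocyte markers, 9 are in the count tables, and their summed level had a median of 0 CPM in members and in other wells, with 4 of the 9 at no read in any member. The 13 tubule markers had a median of 2.04 CPM in members and 111 CPM in other wells. The 10 pericyte and smooth muscle markers had a median of 47.5 CPM in members (mouse means 314 to 1053 CPM) and 10.4 CPM in other wells (28.8 to 455 CPM), a list that holds Kcnj8 and Abcc9. The 6 podocyte markers had a median of 229 CPM in members (mouse means 272 to 739 CPM) and 107 CPM in other wells (190 to 2344 CPM). The highest podocyte mean was thus in other wells. The part of such transcripts in the differences above was not tested. The per-well calls of Angpt2, Trp53i11, Kcnj8 and Kit held when wells with Pdgfrb, Kap or Ptprc were left out. That filter holds no podocyte marker and, of the pericyte and smooth muscle markers, only Pdgfrb, so it cannot settle this. Members and other wells did not differ detectably in reads (exact sign-flip permutation p = 0.188 over 6 mice) or in genes detected (p = 0.125 by the same exact test, smallest possible 0.0312), although both were higher in members in 5 of 6 mice. Thinned to 100000 reads, the median member held 2979 genes and the median other well 2632, and the per-well test called 210 genes higher and 86 lower.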

How the data were processed

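The authors deposited whole-number read counts per gene and well, read counts of spike-in RNA and a layout for each of 6 plates. Per the submitters' processing notes, STAR and mm10 were used, without a version. The counting tool, annotation and strand setting are not given in the sources used here. Entries sharing a symbol were added (771 of 24490). Wells of at least 1000 genes and 20000 gene reads were kept. Doublets were not called. Counts were summed per mouse and kind of well (at least 5 wells), filtered with filterByExpr and TMM-scaled, and tested with edgeR 4.0.16 (R 4.3.3) quasi-likelihood fits, Apln and Esm1 left out of calls. The per-well test used limma 3.58.1. The paired block is the mouse, since both kinds of well come from it, or the number, which marks shared plates. Both tests were run on simulated data with 200 genes changed by a log2 of 2. The edgeR test recovered 86.5% with 13 false calls, and limma 95.5% with 8. The simulations held no difference between mice, and that for limma used the spread its weights assume. They thus cannot show how either test performs on these wells. The members and the 33 gene lists were chosen with earlier results of these data known.

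Named genes were up to 12 of largest change per direction and comparison past an adjusted p of 0.05 (mean log2 CPM no lower than 4, direction shared by 75% of mice or more), from each described list the 2 to 4 genes with the lowest p, and 12 genes always named, such as Pecam1 and Kdr. Where a list's calls are few, all are named. Ednrb and Nrp1 were named after their values were seen. Gene coordinates are from GENCODE on GRCm38, promoters from RefSeq. Possible mixed wells, left out in an alternative, were those with Pdgfrb of at least 50 CPM, Kap of at least 1000 CPM or Ptprc of at least 50 CPM.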

Additional observations from a re-analysis of the deposited data

Results flagged for a closer look

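In groups of 4 mice, 52 sets of member values were searched for a mouse that stands apart, which chance alone finds in about 1 in 20. Cxcr4 in day 10 members was 125 CPM in number 3, against 18.2, 21.2 and 28.3 CPM in the other day 10 mice. Igfbp3 was 5249 CPM in number 1, against 499 to 875 CPM in the others. Prune2 was 10.7 CPM in the highest day 10 mouse, against at most 0.661 CPM in the others, and Efhd1 was 0.0812 CPM in the mouse that held any. Slco2a1 was the gene whose change from day 2 to day 10 differed between members and other wells by a test of that difference (edgeR adjusted p = 0.0305). Its fitted log2 value of 10.6 depends on day 2 members near 0 and is no measure of size.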

How the results depend on the processing

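The excess of the day 10 share over the healthy and the day 2 share passed the adjusted threshold with higher Apln and Esm1 thresholds (12.2 and 10.2 percentage points), in wells of at least 100000 reads (13.6 and 10.9), in thinned wells (13.2 and 10.52) and per plate (14.2 and 12.01). It did not pass with lower thresholds, with wells holding Pecam1 and Cdh5 as the denominator (adjusted p = 0.0857 for both), by sign-flip over numbers (0.375), or without any 1 number (0.15 to 0.3) or plate (0.0857 to 0.2).

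Counts of genes called on sums moved with the setting. Against other wells they were 1771 with DESeq2 (93 higher, 1678 lower), 311 with voom (115 and 196), 345 with 3 wells per sum, 0 with 10, 126 without the replicate block, 24 with sums per number, 6 with higher thresholds, 2 with day 10 mice, 7, 5, 2, 3 and 5 without plates 1, 3, 4, 5 and 6, 0 to 5 without 1 number and 326 per well. Against Ehd3-positive wells they were 969 with DESeq2, 118 with voom, 13 with 3 wells per sum, 11 without the block, 1 with higher thresholds or with no filter, 0 to 1 without 1 number and 170 per well. Against Plvap-positive wells they were 754, 220, 40 and 32 in those first 4 settings, 7 with higher thresholds, 91 with no filter, 4 to 11 without 1 number and 462 per well. Day 10 against day 2 gave 387 with DESeq2, 3 with voom, 0 without the block, 1 with size factors, 17 with lower thresholds, 23 with no filter, 16 without possible mixed wells and 2 per well. The interaction gave 784 with DESeq2, 7 with 3 wells per sum, 275 with higher thresholds, 9 with no filter, 0 with voom, without mixed wells or per well, and 0 to 574 without 1 number.

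Per well, calls without the block were 168 against other wells, 105 against Ehd3-positive wells and 29 for day 10 against day 2. Leaving out 1 number gave 107 to 277, 56 to 166 and, against Plvap-positive wells, 91 to 462. Day 10 against day 2 gave 0 with lower thresholds or thinned wells, and the interaction gave 3 with higher thresholds and 0 to 1 without 1 number.

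Uncalled log2 changes on sums turned sign. Kdr (0.00) was 0.0582 with DESeq2 and with size factors, 0.12 with 10 wells per sum, 0.16 in day 10 mice, 0.0303 without the block, 0.0791 with voom, 0.10 without plate 4, -0.13 to 0.10 without 1 number and 1.26 per well. Plvap (0.56) was -0.55 with 10 wells per sum, -0.17 in day 10 mice and -0.48 without plate 5. Cxcr4 (0.62) was -0.49 and Dll4 (0.21) -0.24 with 3 wells per sum, Dll4 was -0.0161 to 0.45 without 1 number, and Ehd3 (-1.14) was 0.57 per well. The member minus other-well difference in log2 reads was -0.0156 with lower thresholds, and that in reads per spike-in read -0.0198 without number 2 (-0.0198 to 0.226 without 1 number). Of the gene values under alternatives, 1292 kept direction and call and 252 lost the call. The causes were not tested. Day 2 or day 10 against healthy within members, and some settings with 10 wells per sum, could not be fitted. Sums of few wells limit the depth of each member value.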
